A study of Homo sapiens with 4 samples.

Results

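The genes described here are 10 genes of mast cells, basophils and eosinophils: PRG2, PRG3, CPA3, TPSAB1, TPSB2, HDC, MS4A2, FCER1A, EPX and CLC. They were chosen by name with the responses of some of them to azacitidine (AZA) already known, so their AZA/vehicle ratios are a description and not a test. Of the 10 names, 9 had a probe on the array, 10 probes in all out of 58185 probes and 43311 gene names. MS4A2 had 2 probes, and no probe carried the name TPSB2. RNA came from MDS-L cells, a line derived from myelodysplastic syndrome that is sensitive to AZA, and from MDS-L/CDA cells, an AZA-resistant derivative made by transducing cytidine deaminase (CDA). Each line was cultured with IL-3 and treated for 72 h with AZA at 1 μM or with its vehicle, DMSO at 0.1%, which gave 4 conditions with 1 one-colour array each. Titles, source names and descriptions agree on these treatments, whereas the treatment field of the MDS-L AZA array and of the MDS-L/CDA vehicle array names the opposite one, and titles write the dose in mM. With 1 array per condition there was no replicate of the cells, no test and no p-value for any ratio below, and whatever differs between the cultures besides the labelled condition cannot be told apart from it.

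Mast cells, basophils and eosinophils store ready-made effector molecules in granules. Mast cells and basophils release histamine and proteases when allergen crosslinks IgE held by the high-affinity receptor FcεRI, and eosinophils release basic proteins that damage parasites and tissue. The granule proteins are largely transcribed during differentiation of the precursor, under control of factors such as GATA1, GATA2 and MITF. In RNA from a whole culture, more cells of one kind and more transcript per cell cannot be told apart.

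A signal is called above background where the scanner software flags it as well above its local background. Of the 9 granule genes, 7 were above background in MDS-L with vehicle, 7 with AZA, 4 in MDS-L/CDA with vehicle and 6 with AZA, where 36.5%, 38%, 34% and 34.2% of all gene names were. Signals are given after scaling each array to its 75th percentile, in arbitrary units of brightness that do not compare between probes. The lowest signal flagged in this way was 8.61 for MDS-L vehicle, 8.63 for MDS-L AZA, 12.3 for MDS-L/CDA vehicle and 13.4 for MDS-L/CDA AZA. Repeat spots of one probe on the same array gave an SD of a log2 ratio of 0.30 in MDS-L and 0.40 in MDS-L/CDA, which covers the array and not the culture. All 8 markers of a myeloid progenitor line (PTPRC, CD33, CD34, ANPEP, KIT, IL3RA, CSF2RB and SPI1) were well above background on all 4 arrays. The probe named CDA stayed below background throughout, with signals of 4.77, 4.27, 4.98 and 6.60, and whether it lies in the transduced sequence is not given in the sources used here.

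In MDS-L cells all 7 granule genes above background were brighter with AZA, by 3.52-fold (CPA3) to 95.6-fold (PRG2), where 6.73% of 17172 gene names were increased at least 2-fold and 6.03% decreased. In MDS-L/CDA cells 4 of 6 were increased, by 2.21-fold (TPSAB1) to 6.54-fold (CPA3). Of 15393 gene names there, 2.53% were increased and 3.07% decreased. In either line 0 granule genes were counted as decreased. In MDS-L/CDA, PRG2 and MS4A2 were above background with AZA alone, so a decrease could not be counted for them. A gene name was counted as increased when its brighter signal was well above background and the ratio, or its lower bound where the dimmer array was below background, was at least 2. The median log2 ratio was 2.56 over the 7 genes in MDS-L and 1.58 over the 6 in MDS-L/CDA, where all gene names had medians of -0.13 and 0.02. These 2 medians cover different genes, since CLC has no ratio in MDS-L/CDA. The second includes PRG2 and MS4A2 at their lower bounds, and was 2.02 over the 4 genes measured on both arrays. Another scaling changed how all the calls split: 52.7% of the calls in MDS-L were increases, but 11.5% after scaling each array to its median and 70.6% after scaling to the 75th percentile of probes detected on every array. In MDS-L/CDA 45.2% of the calls were increases, and 29.0% without scaling. The 7 genes were counted as increased in MDS-L under all of the alternatives tried.

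**Figure D1:**
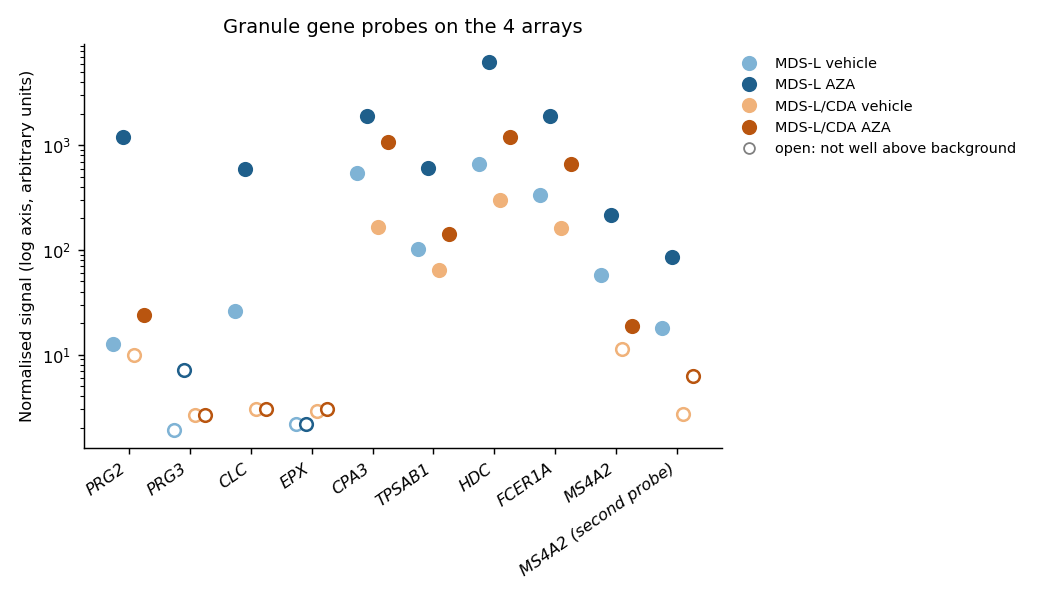
Normalised signal (log axis, arbitrary units) of the 10 probes on the 4 arrays. Filled points are well above background and open points are not. PRG2 and CLC stand far higher on the MDS-L AZA array than on the other 3, whereas CPA3, TPSAB1, HDC and FCER1A rise with AZA in both lines.

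PRG2 encodes eosinophil major basic protein, the cationic protein that forms the core of the eosinophil granule. The probe read 12.7 with vehicle and 1209 with AZA in MDS-L, and below background (9.95) and 24.1 in MDS-L/CDA. The MDS-L vehicle signal lay just above the lowest detected level, so the 95.6-fold ratio in MDS-L has a dim denominator, and it ranked 4 from the top of 17172. With normexp background correction, which pulls dim signals together, the log2 ratio was 4.23 in place of 6.58. In MDS-L/CDA the increase was at least 1.95-fold and missed the 2-fold rule. PRG3, the homologue of PRG2 whose probe lies 10.4 kb away, stayed below background throughout, with signals of 1.90, 7.16, 2.64 and 2.64. The probes of the pair are shown because the neighbouring homologues gave such different signals, and neither sequence holds capitals because no position is singled out. The PRG2 probe is at chr11:57156585-57156644 on the minus strand of hg19. The PRG3 probe matches 60 transcript bases spread over 904 bases at chr11:57145262-57146165, on the same strand.
PRG2 probe: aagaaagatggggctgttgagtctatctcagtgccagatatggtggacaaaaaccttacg
PRG3 probe: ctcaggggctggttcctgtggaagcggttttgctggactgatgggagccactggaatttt

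CLC encodes galectin-10, the protein of Charcot-Leyden crystals in eosinophils and basophils. Its probe read 26.2 with vehicle and 596 with AZA in MDS-L, a 22.7-fold ratio that ranked 31 from the top. In MDS-L/CDA it was below background with vehicle (2.99) and with AZA (3.04), so no ratio can be given there. EPX encodes eosinophil peroxidase, and its signals of 2.16, 2.16, 2.88 and 2.99 were below background on all 4 arrays. Of the eosinophil genes, PRG2 and CLC were thus detected and EPX and PRG3 were not.

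CPA3 encodes the carboxypeptidase of mast cell and basophil granules. The probe read 544 with vehicle and 1913 with AZA in MDS-L, and 164 and 1075 in MDS-L/CDA. It was the member with the smallest ratio in MDS-L (3.52-fold, rank 436) and the largest in MDS-L/CDA (6.54-fold, rank 8 of 15393). The log2 ratio in MDS-L was 0.89 below that in MDS-L/CDA. For the other members measured on all arrays the order was the reverse, with log2 ratios higher in MDS-L by 1.42 for TPSAB1, 1.23 for HDC and 0.49 for FCER1A. These differences between the lines were not tested, and that of FCER1A was close to the spot-to-spot SD.

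TPSAB1 encodes the tryptase stored in mast cell granules. The probe named TPSAB1 is annotated to transcripts of both TPSAB1 and TPSB2, near-identical neighbouring genes, so its signal belongs to either or both. The probe read 103 with vehicle and 608 with AZA in MDS-L, and 64.8 and 143 in MDS-L/CDA. The ratio was 5.91 in MDS-L and 2.21 in MDS-L/CDA. The latter fell below 2 with normexp correction, at a log2 ratio of 0.62, and was not counted when a Z score of at least 2 was also asked for. The probe, at chr16:1291871-1291930 on the plus strand of hg19, is shown as the sequence that the tryptase genes share on this array.
TPSAB1 probe: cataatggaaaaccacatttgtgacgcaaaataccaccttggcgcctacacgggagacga

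HDC encodes histidine decarboxylase, which makes histamine. The probe read 658 with vehicle and 6214 with AZA in MDS-L, and 301 and 1215 in MDS-L/CDA. The ratio was 9.45 in MDS-L, rank 88, and 4.03 in MDS-L/CDA, rank 35. The MDS-L/CDA signal with AZA lay above that of untreated MDS-L cells, by 1.85-fold for HDC, and likewise by 1.98-fold for CPA3 and 1.97-fold for FCER1A. For TPSAB1 the ratio was 1.39, but 0.989 without scaling and 0.934 with median scaling, so its direction turned with the scaling.

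FCER1A and MS4A2 encode the IgE-binding α chain and the signal-amplifying β chain of FcεRI. The FCER1A probe read 333 with vehicle and 1897 with AZA in MDS-L, and 161 and 656 in MDS-L/CDA. It rose 5.70-fold in MDS-L and 4.07-fold in MDS-L/CDA. The brighter MS4A2 probe read 57.8 with vehicle and 215 with AZA in MDS-L, and below background (11.2) and 18.7 in MDS-L/CDA. Its ratio was 3.72 in MDS-L and at least 1.51 in MDS-L/CDA. The second MS4A2 probe gave 18.0 and 85.8 in MDS-L, a 4.76-fold ratio, and was below background in MDS-L/CDA on both arrays (2.69 and 6.30). Both chains thus rose in MDS-L, whereas in MDS-L/CDA the 2-fold rule was met by the α chain.

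**Figure D2:**
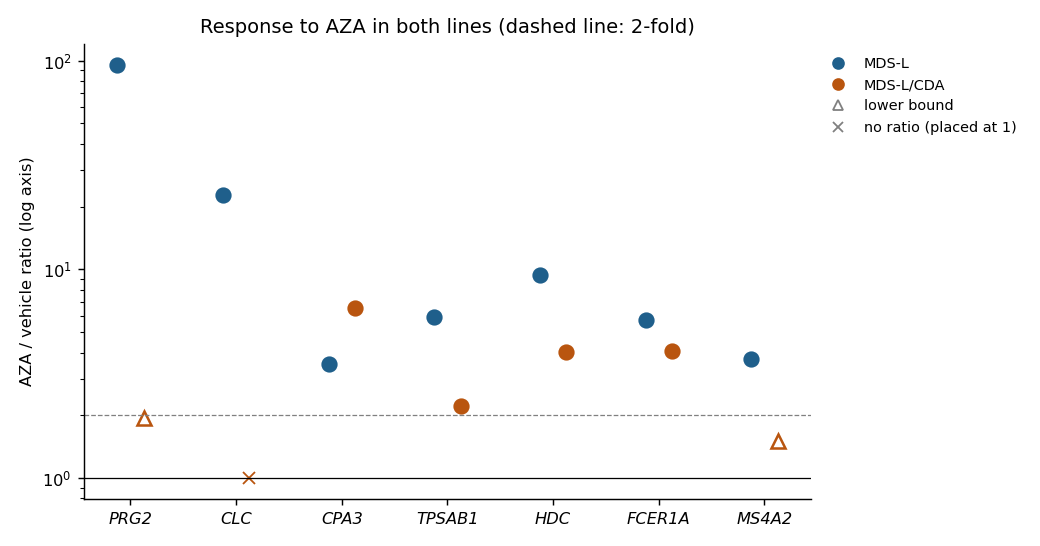
AZA/vehicle ratio (log axis) of the 7 granule genes above background in at least 1 line, with circles for measured ratios, triangles for lower bounds and a cross where no ratio can be given. PRG2 (95.6) and CLC (22.7) lead in MDS-L, and CPA3 (6.54) leads in MDS-L/CDA and is the one of the 4 genes measured in both lines with the higher ratio there.

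**Figure D3:**
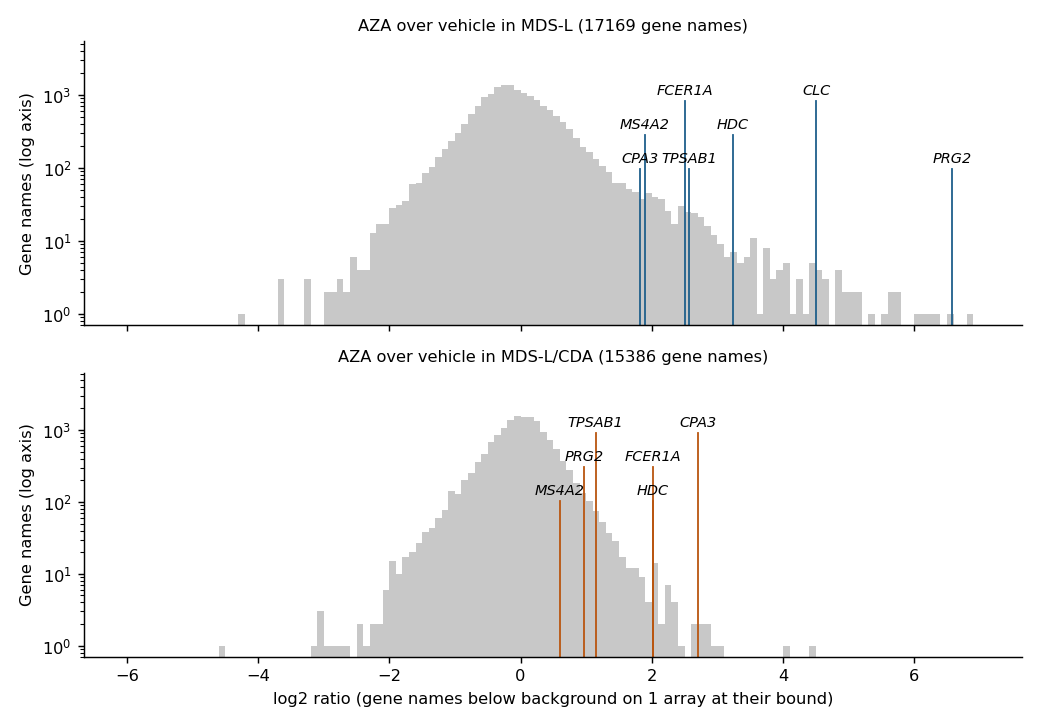
Number of gene names (log axis) by log2 AZA/vehicle ratio in each line, in grey, with the granule genes as labelled lines. Every granule gene lies right of the bulk in MDS-L, and MS4A2 and PRG2 lie at the edge of it in MDS-L/CDA, at lower bounds of 1.51-fold and 1.95-fold.

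Without AZA the granule genes were dimmer in the resistant line. Of 7 genes above background in at least 1 line, 5 were lower in MDS-L/CDA by at least 2-fold and 0 were higher. Of 16015 gene names, 2.64% were lower and 1.97% were higher. PRG2, MS4A2 and CLC were above background in MDS-L alone, so they could not be counted as higher. Among the 4 genes measured on both arrays, CPA3, HDC and FCER1A were lower. By that stricter rule 2.17% of 14510 gene names were lower and 1.59% were higher. CPA3 was 3.31-fold lower, HDC 2.18-fold and FCER1A 2.06-fold. MS4A2 was at least 4.68-fold lower and CLC at least 2.12-fold. TPSAB1 was 1.59-fold lower and PRG2 at least 1.03-fold, and neither was counted. The median log2 ratio was -1.09, with PRG2, MS4A2 and CLC at their bounds, against 0.08 over all gene names. Over the 4 genes measured on both arrays it was also -1.09. Several ratios sat near the limit: the count was 2 (CPA3 and HDC) with normexp correction, 3 when both arrays had to be above background, and 2 at a fold of at least 3. The split of all calls moved too, from 42.8% higher to 7.61% without scaling and 3.37% with median scaling, and TPSAB1 then joined the lower genes.

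Under AZA the lines lay further apart in HDC, TPSAB1 and FCER1A and closer in CPA3. PRG2 was 50.2-fold lower in MDS-L/CDA, CLC at least 44.5-fold and MS4A2 11.5-fold. HDC was 5.11-fold lower, TPSAB1 4.24-fold and FCER1A 2.89-fold. Thus 6 of 7 genes were lower, where 5.23% of 16739 gene names were lower and 5.43% were higher. CLC was above background in MDS-L alone, so it could not be counted as higher. CPA3 was 1.78-fold lower and was not counted, though it passed 2-fold without scaling, with scaling to probes detected on every array, with quantile normalisation, with normexp correction and in the authors' value table. The median log2 ratio was -2.35, with CLC at its bound, against 0.20 over all gene names, and -2.22 over the 6 genes measured on both arrays. The share of all calls that were higher in MDS-L/CDA was 51.0%, and 7.11% without scaling. The contrasts between lines use the same 4 arrays as the AZA contrasts and add no independent evidence to them.

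Other contents of the granule, and the related genes below, were read by the same rule, where 6.73% of all gene names were increased and 6.03% decreased in MDS-L, and 2.53% and 3.07% in MDS-L/CDA. The granule genes were chosen partly for their responses, so a difference between them and these lists is no result. Of 15 other granule proteases, proteoglycans and RNases above background, 3 were increased and 1 was decreased in MDS-L, and 1 was increased and 1 decreased in MDS-L/CDA, 1 of 15 being near the share over all gene names. SRGN, the proteoglycan core that packs proteases in the granule, rose from 174 to 542 in MDS-L (3.11-fold) and from 138 to 364 in MDS-L/CDA (2.63-fold). RAB27B, a GTPase of granule exocytosis, rose from 354 to 1335 in MDS-L (3.77-fold), with 613 and 662 in MDS-L/CDA (1.08-fold). TPSD1, a tryptase gene beside TPSAB1, rose from 55.6 to 366 in MDS-L (6.59-fold) and had 45.4 and 85.7 in MDS-L/CDA (1.89-fold). Its second probe was below background on all 4 arrays and gives no ratio, so the TPSD1 ratios rest on the brighter probe alone. CTSG, cathepsin G of neutrophil and some mast cell granules, went the other way, from 514 to 251 in MDS-L and from 240 to 90.6 in MDS-L/CDA, ratios of 0.488 and 0.378. CMA1, mast cell chymase, was below background on all 4 arrays. RNASE2, the eosinophil-derived neurotoxin, had 70.0 and 78.6 in MDS-L and was below background in MDS-L/CDA.

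The list of FcεRI chains and signalling genes also held MS4A3, MS4A4A and MS4A6A, relatives of MS4A2. On this list 3 of 19 were increased in MDS-L (6.73% of all gene names) and 1 of 16 in MDS-L/CDA (2.53%), with 0 decreased. LAT, the adaptor that links the receptor to calcium signalling, rose from 1205 to 8923 in MDS-L (7.41-fold) and from 1569 to 4633 in MDS-L/CDA (2.95-fold). FYN, a Src-family kinase, rose at least 9.21-fold in MDS-L. FCER1G, the γ chain that FcεRI shares with other Fc receptors, had ratios of 1.81 and 1.70 and was counted in neither line. MS4A3, a relative of MS4A2 that is counted among the increases in MDS-L, rose from 13.9 to 312 there (22.5-fold). It was below background in MDS-L/CDA.

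Histamine and lipid mediator genes were increased in 4 of 11 cases in MDS-L (6.73% of all gene names) and 4 of 10 in MDS-L/CDA (2.53%), with 0 decreased. SLC18A2, the transporter that loads histamine into granules, rose at least 6.35-fold in MDS-L and was below background in MDS-L/CDA. ALOX5AP, the partner of the leukotriene-forming lipoxygenase, rose 4.50-fold and 2.90-fold. ALOX5, that lipoxygenase itself, was below background on all arrays with either of its probes. Of the 11 genes with a ratio in MDS-L, 8 lay above 1, while PLA2G4A (0.586) and CYSLTR1 (0.518) were among those below. LTC4S, leukotriene C4 synthase, rose 4.65-fold in MDS-L and had a ratio of 1.55 in MDS-L/CDA. HPGDS, the haematopoietic prostaglandin D synthase, had ratios of 1.69 and 2.04, the second just past the rule.

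Receptors and surface markers were increased in 6 of 14 cases in MDS-L (6.73% of all gene names) and 4 of 12 in MDS-L/CDA (2.53%), with 0 decreased. KIT, the stem cell factor receptor on which mast cells depend, had 22.8 and 1080 in MDS-L (47.3-fold) and 15.7 and 56.2 in MDS-L/CDA (3.58-fold). Of the other KIT probes, one was above background on the MDS-L AZA array alone (44.8) and one on none. IL1RL1, the IL-33 receptor of mast cells and basophils, had 36.9 and 83.8 in MDS-L (2.27-fold), and in MDS-L/CDA below background (13.4) and 101 (at least 7.59-fold), so like CPA3 it had the higher ratio in the resistant line. SIGLEC6 rose 4.48-fold and 3.51-fold, and SIGLEC8, an inhibitory receptor of eosinophils and mast cells, rose at least 4.05-fold in MDS-L. The eosinophil receptors CCR3 and IL5RA were below background on all 4 arrays.

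Of the transcription factors of these lineages, 5 of 19 were increased and 1 was decreased in MDS-L (6.73% and 6.03% of all gene names), and 3 of 18 were increased in MDS-L/CDA (2.53%). GATA1 had 57.2 and 654 in MDS-L (11.4-fold) and 23.0 and 94.2 in MDS-L/CDA (4.10-fold). GATA2, needed in mast cells and basophils, had 603 and 1480 in MDS-L (2.46-fold) and 596 and 1198 in MDS-L/CDA (2.01-fold). MITF, a regulator of mast cell granule genes, rose at least 4.21-fold in MDS-L, was below background in MDS-L/CDA, and was below background everywhere on 1 of its 3 probes. The increases were thus spread over receptors, mediators and factors as well as granule proteins. Median log2 ratios of genes measured on both MDS-L arrays were 0.29 for granule contents, 0.42 for mediators, 0.47 for receptors and 0.22 for transcription factors. The median was -0.02 for the FcεRI list, with its relatives of MS4A2.

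**Figure D4:**
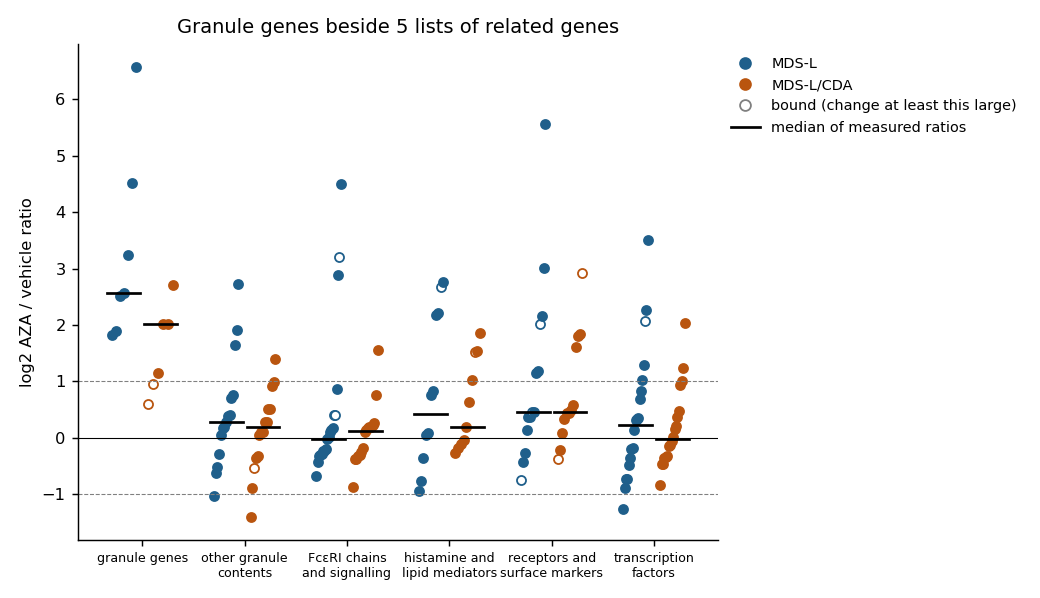
log2 AZA/vehicle ratio of the granule genes and of 5 lists of related genes, in both lines. Filled points are measured on both arrays, open points are bounds (a change at least that large) and bars are medians of the measured ratios, with dashed lines at 2-fold. Single genes of each list reach past 2-fold in both lines.

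Markers of other blood lineages were read on the same arrays, and their part in these results was not tested. Sums of their signals are set by the brightest probes and include signals below background. Of 11 neutrophil markers, 4 were above background in MDS-L and 3 in MDS-L/CDA, and MPO, ELANE, AZU1, LTF, CAMP, DEFA4 and MMP8 were below background on all 4 arrays. Their summed signal went from 912 to 680 in MDS-L and from 331 to 250 in MDS-L/CDA with AZA, where CTSG and CSF3R made up most of it, while MMP9 rose 5.39-fold in MDS-L and 3.27-fold in MDS-L/CDA. Of 8 monocyte markers 0 to 3 were above background on each array, and their sum went from 46.6 to 83.9 and from 39.7 to 74.5. CSF1R rose at least 4.86-fold in MDS-L, and CD14 had a ratio of 0.669 there. Of 7 erythroid markers 2 to 5 were above background, and the sum went from 163 to 576 in MDS-L and from 183 to 187 in MDS-L/CDA. HBG1, a fetal globin, rose at least 49.9-fold in MDS-L and made up most of the sum there with AZA (430 of 576). Of 5 erythroid markers with a ratio in MDS-L, 3 lay above 1. The others, EPOR and KLF1, were measured on both MDS-L arrays and had ratios of 0.716 and 0.639, neither past the 2-fold rule. HBD, the δ-globin gene outside this list, rose 7.16-fold in MDS-L and 4.02-fold in MDS-L/CDA, while ALAS2 and AHSP were below background on all 4 arrays. Of 7 megakaryocyte markers 1 to 3 were above background, and the sum went from 487 to 1032 and from 660 to 1072, with PPBP up 13.0-fold and at least 3.17-fold. Of 8 lymphoid markers 4 or 5 were above background, and the sum went from 1452 to 1230 and from 1724 to 1993.

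The 4 granule genes above background on all 4 arrays (CPA3, TPSAB1, HDC and FCER1A) shared a profile, lowest in MDS-L/CDA vehicle, then MDS-L vehicle, then MDS-L/CDA AZA, and highest in MDS-L AZA. CPA3, HDC and FCER1A followed that order, as did TPSAB1 except without scaling and with median scaling, where its middle pair changed places. For CPA3, HDC and FCER1A the middle pair came closest with median scaling, at 1.32-fold, 1.24-fold and 1.32-fold. Among 13958 gene names above background on all arrays, the nearest to their mean profile was PTGDR2, the prostaglandin D receptor CRTH2 that marks basophils and eosinophils, at a root mean square difference of 0.12 on the log2 scale over 4 arrays. PTGDR2 had signals of 51.4, 349, 29.5 and 106.7. Next came HBD (0.24), P2RY14 (0.26), AQP3 (0.27), ISG20 (0.30), SNAR-F (0.31), JPH4 (0.31), MMP9 (0.33), CYP1A1 (0.34) and SMIM1 (0.36). PTGDR2 ranked first under every other scaling tried and 13 with normexp correction, where 3 of the 10 names were shared. The likeness rests on 4 arrays and is a description.

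**Figure D5:**
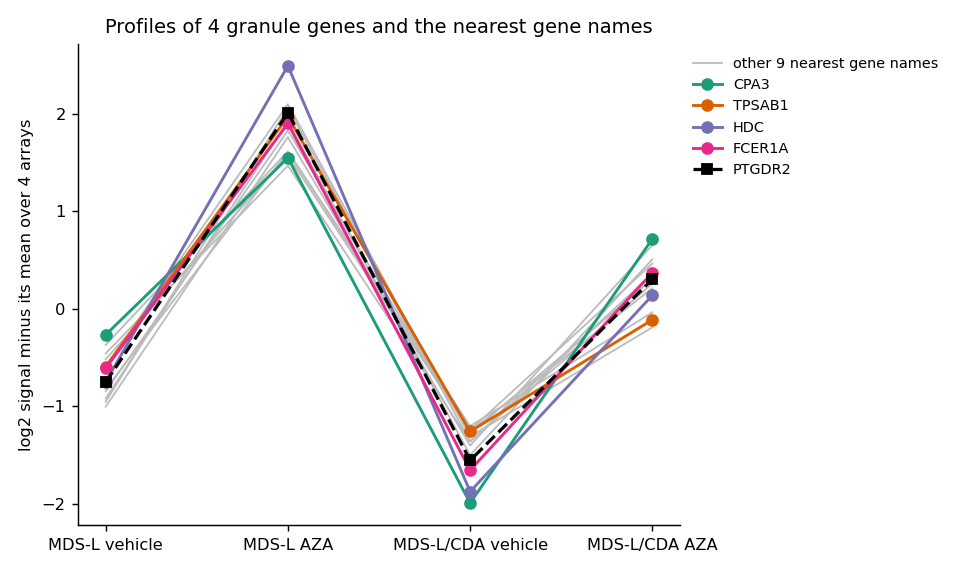
log2 signal minus its mean over the 4 arrays for CPA3, TPSAB1, HDC, FCER1A and PTGDR2, with the other 9 nearest gene names in grey. All of the lines rise with AZA in both cell lines and are lowest in MDS-L/CDA vehicle.

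Of 48 other gene names with a probe within 100 kb of a granule gene probe on hg19, 2 of 19 above background were increased in MDS-L and 0 were decreased, and in MDS-L/CDA 0 of 14 were increased or decreased, where 6.73% and 2.53% of all gene names were increased, so the counts say little about neighbours. The 2 were MS4A3, 31.2 kb from MS4A2, and TPSD1, 15.0 kb from TPSAB1, both relatives of the gene they adjoin. SLC27A2, 6.01 kb from HDC, had 1681 and 2543 in MDS-L, a ratio of 1.51. MKS1, 1.36 kb from the EPX probe, had 46.3 and 44.1.

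The promoters of 6 of the 10 genes (PRG3, CPA3, HDC, MS4A2, FCER1A and CLC) were in the RefSeq sequences for GRCh38.p14, read over the 250 bases before 1 start per gene. The genes FCER1A and MS4A2 are annotated from further upstream (chr1:159283575 and chr11:60088259), and the bases before those positions were not read. CG dinucleotides, the sites of DNA methylation, numbered 0 in the promoters of PRG3, CPA3, MS4A2 and FCER1A, 2 in CLC and 4 in HDC. All 6 counts lay below the median of 27305 promoters, which was 11. Of those promoters 6.39% held 0, 23.6% at most 2 and 35% at most 4, so the counts of CLC and HDC were not rare. AZA blocks the enzymes that methylate CG dinucleotides, and methylation was not measured on these arrays. A GATA motif, searched as AGATAA, as TGATAA and as each of these with G for the last A, on both strands, was found in 5 of the 6, all but HDC, against 22.9% of all promoters and 41.2% of the 9564 promoters with at most 4 CG. Other motifs were GAGGAA in 3 of 6 (23.4% of all promoters), TGTGGT in 2 (10.9%), CACGTG or CATGTG in 1 (15.5%) and a C/EBP-like TTNNGNAA in 3 (33.6%). A match describes letters, not binding. The promoters of CPA3 (chr3:148865046-148865295, plus strand), FCER1A (chr1:159302086-159302335, plus strand), CLC (chr19:39738030-39738279, minus strand) and HDC (chr15:50265727-50265976, minus strand) are shown to set the GATA motifs of 3 genes beside HDC, which has none, with each match in capitals.
CPA3 promoter: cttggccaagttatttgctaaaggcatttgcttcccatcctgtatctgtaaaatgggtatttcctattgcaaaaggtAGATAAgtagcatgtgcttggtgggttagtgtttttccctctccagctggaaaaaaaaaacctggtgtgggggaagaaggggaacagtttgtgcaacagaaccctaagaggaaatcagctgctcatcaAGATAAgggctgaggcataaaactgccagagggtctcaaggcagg
FCER1A promoter: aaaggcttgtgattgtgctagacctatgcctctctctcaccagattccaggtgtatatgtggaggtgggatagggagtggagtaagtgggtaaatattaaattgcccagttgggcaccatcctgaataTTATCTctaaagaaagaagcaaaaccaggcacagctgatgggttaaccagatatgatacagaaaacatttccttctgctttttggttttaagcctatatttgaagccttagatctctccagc
CLC promoter: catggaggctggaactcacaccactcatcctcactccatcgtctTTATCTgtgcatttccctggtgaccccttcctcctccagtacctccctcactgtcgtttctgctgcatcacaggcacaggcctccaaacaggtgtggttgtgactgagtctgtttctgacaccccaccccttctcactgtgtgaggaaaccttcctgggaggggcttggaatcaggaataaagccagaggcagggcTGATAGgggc
HDC promoter: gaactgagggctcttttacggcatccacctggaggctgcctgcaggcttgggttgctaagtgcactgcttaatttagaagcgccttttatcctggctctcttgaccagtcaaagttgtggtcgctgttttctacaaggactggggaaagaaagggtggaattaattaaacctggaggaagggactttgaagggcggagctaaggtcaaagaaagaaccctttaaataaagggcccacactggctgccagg
The first base of the match lay 173 and 45 bases before the start in CPA3, 122 in FCER1A, and 206 and 10 in CLC. CPA3, FCER1A and HDC, with and without a match, rose with AZA in both lines, while CLC rose in MDS-L and was below background in MDS-L/CDA. MS4A2, with a match at 54 bases, rose in MDS-L and missed the 2-fold rule in MDS-L/CDA. PRG3 had a match at 103 bases but was below background on every array. Whether a match bears on the response to AZA was not tested.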

How the data were processed

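RNA of both lines, with vehicle or AZA, was hybridised to 4 one-colour Agilent arrays. The authors deposited scanner output of Feature Extraction 10.7.1.1 (design 072363), with the background-subtracted intensity of each spot, not normalised between arrays, and a value table of 51680 probes, an intensity on a linear scale whose columns, once sorted, lie within 0.0391 log2 units of each other (medians 4.21 to 4.31); its scaling is not described in the methods. It served as an alternative.

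Control spots and outlier spots were left out, which removed 16 probes. Log2 signals were averaged over spots and each array was scaled to its 75th percentile. Gene names and hg19 positions are those of the design. The probe with the highest mean signal stood for a gene. A signal below background was replaced by that array's lowest signal above background, unless its own value was higher, giving a lower bound; no ratio is given where both were below. The methods also ask for a Z score of at least 2 without its formula, tried here in 10 bins of signal. The number of arrays limits the precision.

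The members and gene lists were chosen with earlier results of these data known. Named genes are the members, genes of the lists, the 10 of nearest profile, genes within 100 kb and CDA. Python 3.11.15, pandas 2.3.3, R 4.3.3 and limma 3.58.1 (normexp with an offset of 50) were used, and the calling rule was checked on simulated data. Further alternatives were other scalings, detection flags, folds of 1.5 and 3, and any probe of a gene.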

Additional observations from a re-analysis of the deposited data

Results flagged for a closer look

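NKG7, a granule gene of cytotoxic lymphocytes on the list of lymphoid markers, had opposite AZA/vehicle ratios in the lines, 0.451 in MDS-L (signals of 34.7 and 15.6) and 2.04 in MDS-L/CDA (27.7 and 56.7), and with 1 array per condition this difference was not tested.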

How the results depend on the processing

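No paired analysis was possible because each condition has 1 array and the groups compared share fewer than 2 replicate numbers (a fit of AZA over both lines together, with each line as a pair, was not run), and for the same reason no array could be left out. Of 216 alternative values of single genes, 172 moved by no more than the spot-to-spot spread, 44 moved by more and 0 changed direction after a call. The median log2 ratio of the granule genes in MDS-L was 2.02 with median scaling, where the median of all gene names was -0.67, and in MDS-L/CDA it was 1.04 with normexp correction. For MDS-L/CDA over MDS-L with vehicle it was -1.45 without scaling, -1.61 with median scaling and -0.71 with normexp, and under AZA -2.86 without scaling and -1.95 with normexp. The number of granule genes lower in MDS-L/CDA with vehicle was 5, and 2 with normexp, 3 with both arrays above background and 2 at a fold of at least 3. Related genes of the 5 lists increased in MDS-L/CDA numbered 13, and 4 with normexp, where the increases over all gene names went from 389 to 67. Of the 10 nearest profiles, 6 were shared with quantile normalisation, 3 with normexp and 6 with the authors' value table. The cause of these shifts was not tested. With the more lenient flag of the scanner software, PRG3 was also counted as increased in MDS-L and PRG2 in MDS-L/CDA. Signal near background limits PRG2, CLC and MS4A2, whose bounds are the most the arrays give.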

Other observations

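Some listed genes fell where the granule genes rose. IKZF2 encodes the zinc finger factor Helios. Its brightest probe went from 5096 to 2141 in MDS-L with AZA, a ratio of 0.420, and from 4325 to 3478 in MDS-L/CDA, a ratio of 0.804. The other IKZF2 probes, above background on all 4 arrays, went from 97.7 to 59.2 and from 49.7 to 34.4 in MDS-L. Both fell short of the 2-fold rule, so the decrease counted for IKZF2 rests on the brightest probe. CSF3R, the receptor of granulocyte colony-stimulating factor, differed mainly by line, with 335 and 188 in MDS-L and 30.5 and 27.9 in MDS-L/CDA, so that the ratio of MDS-L/CDA over MDS-L was 0.0911 with vehicle and 0.149 with AZA.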
